A study of Mus musculus with 25 samples.

Results

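Chromatin interactions that touched 1 of the 4 mouse Hox clusters were examined in 9 lists of high-confidence interactions between 10 kb bins. A pair of bins was taken when either bin lay in the Hoxa cluster (chr6:52140001-52290000), the Hoxb cluster (chr11:96180001-96380000), the Hoxc cluster (chr15:102910001-103050000) or the Hoxd cluster (chr2:74650001-74780000), in build mm10. This gave 691 listed interactions of 912901 in all, made of 386 distinct bin pairs. Hoxa had 126 of the listed interactions, Hoxb 209, Hoxc 331 and Hoxd 25. Position alone chose them, and no measured value was used.

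The libraries came from reprogrammable mouse embryonic fibroblasts (MEFs), from the same fibroblasts during reprogramming, and from embryonic stem (ES) cells. The fibroblasts were prepared at E13.5 from rtTA3-OKSM embryos. All of them, the untreated MEF group included, were heterozygous for an Oct4-GFP reporter, for the doxycycline-inducible OKSM cassette (Oct4, Klf4, Sox2 and Myc, at Col1a1) and for rtTA3. The MEF group was collected at passage 3. Reprogramming cells had doxycycline and ascorbic acid for 3 days (collected in bulk) or 6 days (sorted for the surface marker SSEA1). ES cells were of the V6.5 line, kept in 2i medium. Cells labelled TKO were also listed as V6.5 in 2i, either at 0 h or after 24 h of doxycycline; the labels do not say which genes the name stands for, so the check of a targeted gene could not be made. HiChIP, in which ligated contacts are precipitated with an antibody, was done against H3K27ac in MEF (2 libraries), ES (2), TKO 0 h (3) and TKO 24 h (3), and against KLF4 at day 3 (3), day 6 (4) and in ES (4). Hi-C, which uses no antibody, was done in MEF (2) and ES (2).

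HiChIP libraries held 48.7 to 181 M (mega) contacts, and the listed Hi-C counts summed to 5576165 to 10015967 per library. ES H3K27ac libraries were deeper (166 and 168 M) than MEF ones (75.0 and 105 M). Markers fitted the labels in the H3K27ac lists. Listed interactions of all 8 ES markers were more numerous in ES (Esrrb had 94 against 0 in MEF), and 6 of 8 fibroblast markers had more in MEF (Prrx1 had 17 against 0). The exceptions were Twist1, with 0 in both, and Fn1, with 2 in MEF and 17 in ES. Nothing in the labels says whether replicates came from separate cultures, so p-values measure the spread between these libraries, which may be technical.

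Hox genes encode homeodomain transcription factors that give cells their position along the body axes. They lie in a fixed order, and genes at the Hoxb1 end are switched on earlier and further forward in the embryo than genes at the Hox13 end. In ES cells the clusters are classical targets of Polycomb repression, whereas fibroblasts keep part of the Hox code of the place they came from. H3K27ac marks active promoters and enhancers, and KLF4 is a zinc finger factor of the reprogramming cocktail that binds GC-rich elements with a CACCC core. Topologically associating domains (TADs) are stretches within which contacts are frequent.

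The clusters also hold microRNA genes, whose bins were among the contacting bins below, and their mature sequences show the 2 families that recur between clusters. Capitals mark the seed (bases 2 to 8). The sequences are from RefSeq (GRCm38.p6, the same assembly as mm10).
miR-10a-5p, chr11:96317186-96317208, plus strand: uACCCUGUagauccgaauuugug
miR-10b-5p, chr2:74726074-74726096, plus strand: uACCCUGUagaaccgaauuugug
miR-196a-5p, chr11:96265187-96265208 and chr15:102973365-102973386, plus strand: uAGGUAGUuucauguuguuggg
miR-196b-5p, chr6:52230129-52230150, minus strand: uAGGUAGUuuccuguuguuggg
Each family shared its seed. Counted from the 5′ end, miR-10a and miR-10b differed by U12A, and miR-196a and miR-196b by A12C. In the H3K27ac lists of MEF and ES, the bin of Mir10a had 4 interactions and 0, that of Mir196b had 2 and 0, and the bin of Mir196a-1 had 0 and 1. The bin of Mir10b had none in any HiChIP list.

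Promoters of 6 genes are printed because their bins carried the contacts that the results turn on: Hoxa9, Hoxa10 and Hoxb4 in fibroblasts and at day 3, Hoxd10 in the KLF4 lists, Hoxc4, whose bin had contacts in both cell types, and Ttll6, a neighbour of Hoxb contacted in ES cells. Each run is the 250 bases before a start in the promoter entries, and capitals mark GGGTG or, on the other strand, CACCC. For Hoxa9, Hoxa10 and Hoxb4 this is the start of the gene body. For Hoxc4, Hoxd10 and Ttll6 it lies inside the gene body, in another bin than the start of that body. The bin meant for these genes is that of the printed window.
Hoxa9, chr6:52227371-52227620, minus strand: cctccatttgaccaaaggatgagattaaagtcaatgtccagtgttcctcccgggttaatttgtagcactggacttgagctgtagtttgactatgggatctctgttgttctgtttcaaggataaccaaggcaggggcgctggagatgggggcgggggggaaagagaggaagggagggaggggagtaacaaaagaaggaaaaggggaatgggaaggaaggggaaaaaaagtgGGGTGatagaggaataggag
Hoxa10, chr6:52240855-52241104, minus strand: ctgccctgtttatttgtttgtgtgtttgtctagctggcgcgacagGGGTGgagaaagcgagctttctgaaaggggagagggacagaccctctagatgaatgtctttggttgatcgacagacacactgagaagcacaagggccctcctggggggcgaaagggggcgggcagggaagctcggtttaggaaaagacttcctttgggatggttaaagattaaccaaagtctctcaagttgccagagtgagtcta
Hoxb4, chr11:96318017-96318266, plus strand: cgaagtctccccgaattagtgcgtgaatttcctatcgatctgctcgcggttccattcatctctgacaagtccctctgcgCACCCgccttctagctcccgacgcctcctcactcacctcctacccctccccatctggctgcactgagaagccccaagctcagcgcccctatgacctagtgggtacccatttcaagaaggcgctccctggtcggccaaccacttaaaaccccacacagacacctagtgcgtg
Hoxc4, chr15:103034145-103034394, plus strand: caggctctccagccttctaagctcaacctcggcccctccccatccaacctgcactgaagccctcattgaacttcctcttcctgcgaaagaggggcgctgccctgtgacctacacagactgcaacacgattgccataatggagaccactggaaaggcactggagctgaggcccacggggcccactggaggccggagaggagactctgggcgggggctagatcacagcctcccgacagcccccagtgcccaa
Hoxd10, chr2:74691641-74691890, plus strand: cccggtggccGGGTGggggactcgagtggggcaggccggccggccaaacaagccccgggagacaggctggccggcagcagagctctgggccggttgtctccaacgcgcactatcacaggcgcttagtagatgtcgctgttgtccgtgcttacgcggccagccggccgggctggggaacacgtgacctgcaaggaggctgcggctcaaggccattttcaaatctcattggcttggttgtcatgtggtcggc
Ttll6, chr11:96133536-96133785, plus strand: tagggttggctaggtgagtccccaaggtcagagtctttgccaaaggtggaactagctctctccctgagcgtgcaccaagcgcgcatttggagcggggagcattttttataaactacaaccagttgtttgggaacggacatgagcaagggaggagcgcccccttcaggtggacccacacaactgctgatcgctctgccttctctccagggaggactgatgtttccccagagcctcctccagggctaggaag
The Hoxa9, Hoxa10, Hoxb4 and Hoxd10 promoters held 1 match each, and the Hoxc4 and Ttll6 windows held 0. Such a match is common. It was found in 15 of 24 promoter entries of Hox genes (62.5%) and in 52.0% of all 32851 promoters of the same length. The longer KLF-type motif GGGNGTGG also holds GGGTG where N is T or G. It was found on either strand in 6 of the 24 Hox entries (25%) and in 15.9% of all promoters. Entries existed for 22 of the 39 Hox genes. A match is a string in a window and was not tested as a binding site.

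Numbers of listed Hox interactions differed between assays, clusters and cells. The MEF H3K27ac list had 25 (0.0411% of that list), the ES H3K27ac list also 25 (0.0331%), the TKO 0 h list 67 (0.0719%) and the TKO 24 h list 54 (0.0641%). The KLF4 lists held 26 from day 3 (0.110%), a single 1 from day 6 (0.0247%) and 46 from ES cells (0.187%). Fibroblast Hi-C had 196 (0.0859%) and ES Hi-C 251 (0.0788%). The level of a pair absent from a list is unknown, because the lists were filtered, so absence is not a level of 0. In these cell populations, a contact made in fewer cells and a weaker contact per cell cannot be told apart.

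Hoxc contributed most interactions in every list except MEF H3K27ac (Hoxb) and day 3 KLF4 (Hoxa). Hoxd had the fewest or equal fewest in all 9. In HiChIP these ranks depended on the filter, which asked for fewer counts on chromosome 15. In TKO 24 h replicate 2 the lowest listed count was 13 on chromosome 15, 19 on chromosome 11 and 23 on chromosome 2. With the count of chromosome 2 asked everywhere, a rule chosen after seeing the data, Hoxb had more than Hoxc in TKO 24 h. Stretches of the same length on the same chromosome gave a scale for each count. Hoxc had 17 interactions in ES H3K27ac against a mean of 7.51 over such stretches of chromosome 15, and 130 in ES Hi-C against 24.6. Hoxb, with 8 in ES H3K27ac, was below its mean of 9.88. Hoxd had 0 in MEF and ES H3K27ac against means of 1.90 and 2.94, and 8 and 10 in Hi-C against 13.6 and 21.1. In KLF4, Hoxa (12 at day 3) and Hoxd (3 at day 3 and 3 in ES) were above their means of 1.15, 0.749 and 0.815. The medians over such stretches were lower than the means. They were 1 for Hoxb in ES H3K27ac and 0 for Hoxd in MEF and ES H3K27ac. For Hoxd in Hi-C they were 5 in MEF and 3 in ES. Hoxb in ES H3K27ac and Hoxd in Hi-C were thus below the mean but above the median.

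**Figure D1:**
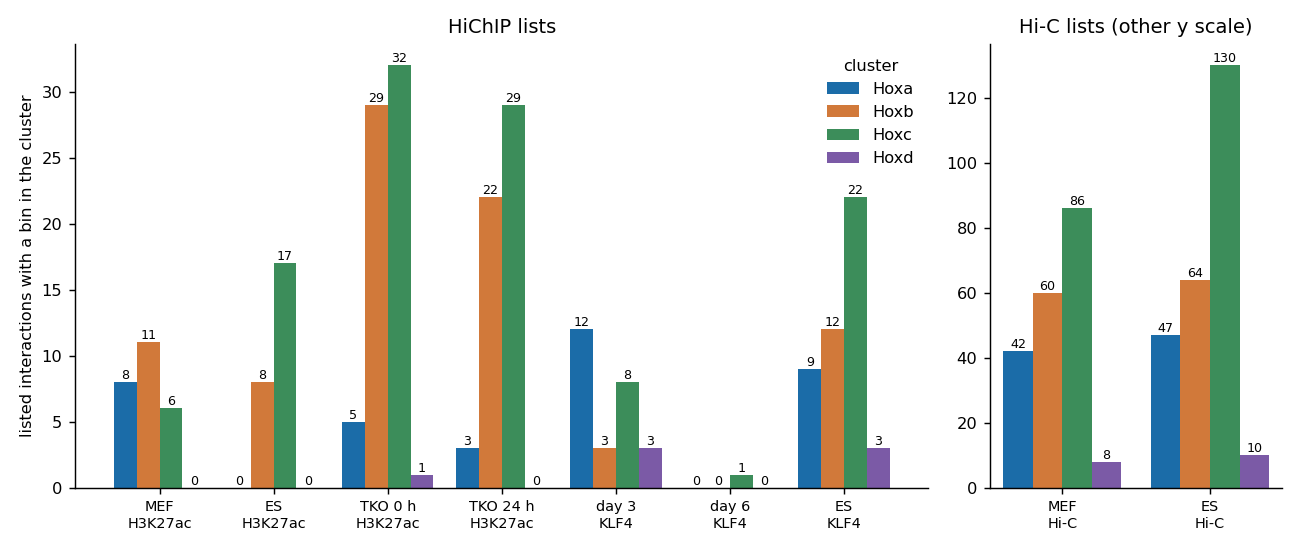
Numbers of listed interactions with at least 1 bin in each Hox cluster, by list, with HiChIP on the left and Hi-C on the right on its own y scale. Bars are coloured by cluster and carry their counts. Hoxc is the tallest bar in both Hi-C lists (86 and 130), and Hoxa has 8 in MEF and 0 in ES for H3K27ac.

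In the H3K27ac lists, fibroblasts and ES cells used different parts of the clusters. MEF interactions lay along Hoxa, most of them at Hoxa9 to Hoxa13, along Hoxb6 to Hoxb2 and at Hoxc9 to Hoxc4. ES interactions lay at an RNA gene between Hoxb13 and Hoxb9 and around Hoxc13, Hoxc12 and Hotair, with others at Hoxc4. None of the 25 MEF interactions was among the 25 of ES, a count of 0 that allows a share of up to 12% if the pairs are independent. Many of them share a bin, so that limit is too narrow. Over the whole lists 29.4% of MEF and 23.7% of ES interactions were in both. With each anchor free to move by 1 bin, 2 of 25 (8%) matched. Of the bins of the clusters that took part, 20 in MEF and 17 in ES, 4 took part in both, all in Hoxc.

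**Figure D2:**
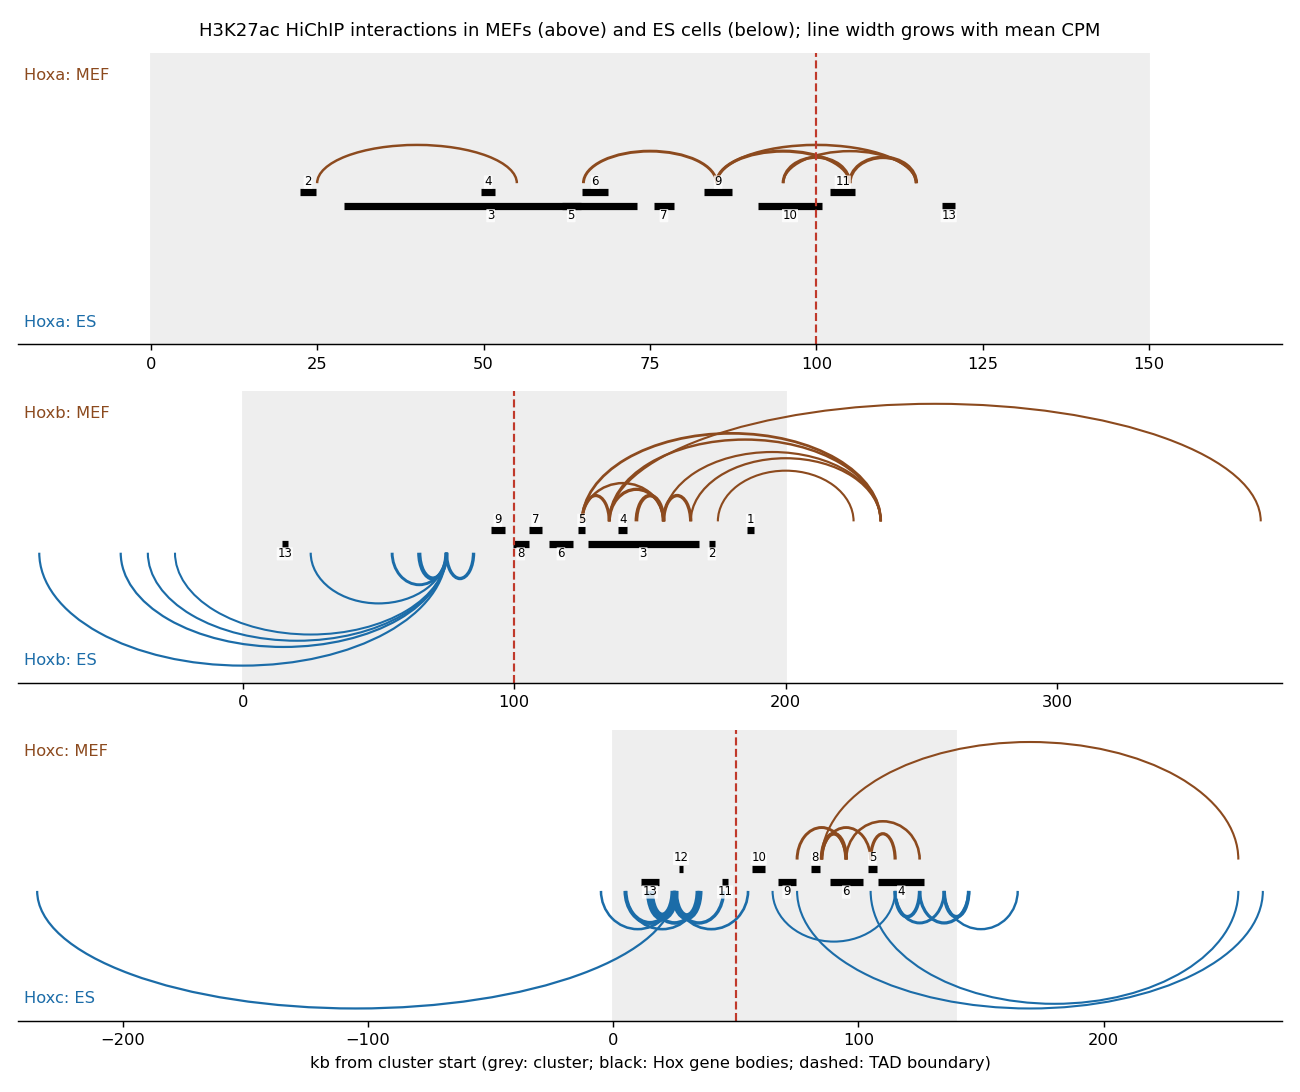
H3K27ac HiChIP interactions at Hoxa, Hoxb and Hoxc drawn as arcs between bin centres, with MEF above and ES below the genes; x is the distance in kb from the cluster's start, and line width grows with mean CPM. Grey marks the cluster, black bars are Hox gene bodies and the dashed line is the TAD boundary. The Hoxa arcs drawn lie above only, and at Hoxb the MEF arcs lie right of the boundary and the ES arcs left of it.

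At Hoxa, all 8 interactions were listed in MEF and 0 in ES. Levels are in CPM, which here means counts per M contacts of the same chromosome. The strongest joined the bin of Hoxa10 and Hoxa11 to the bin of Hoxa13 (chr6:52240001-52250000 and chr6:52250001-52260000), at 6.64 and 8.10 CPM in the 2 libraries (7.37 ± 1.04, SD, n = 2). The Hoxa9 bin (chr6:52220001-52230000) was joined to the Hoxa10 and Hoxa11 bin at 5.09 and 7.47 CPM. These genes of the Hoxa9 to Hoxa13 end act in limb and trunk patterning. The Hoxa9 bin, the Hoxa10 and Hoxa11 bin and the first Hoxa13 bin had 3 interactions each. Other contacts lay nearer the middle of the cluster. The bin of Hoxa2 and Hoxa3 was joined to the Hoxa4 bin at 3.54 and 5.09 CPM, and the bin of Hoxa5 and Hoxa6 to the Hoxa9 bin at 4.87 and 6.36 CPM. In all, 8 of the 15 Hoxa bins took part.

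At Hoxb the lists split along the cluster. In MEF, all 11 interactions lay on the side of Hoxb7 to Hoxb1, and Hoxb3, a gene of hindbrain and neck patterning whose body covers several bins, took part in 10 of them. The strongest joined the 2 bins chr11:96320001-96330000 (Hoxb3 and Hoxb4) and chr11:96330001-96340000 (Hoxb3), at 7.68 and 7.99 CPM (7.84 ± 0.215, SD, n = 2). The bin of Hoxb3, Mir10a and Hoxb4 (chr11:96310001-96320000), which holds the Hoxb4 promoter printed above, was joined to the same Hoxb3 bin at 6.36 and 6.69 CPM. A bin outside the cluster without an annotated gene, chr11:96410001-96420000, had 4 interactions with the Hoxb genes, of which the strongest reached 5.13 ± 1.74 CPM (SD, n = 2) at the Hoxb5 and Hoxb6 bin. The longest ran 240 kb, from the Mir10a and Hoxb4 bin into Skap1, at 3.26 ± 0.116 CPM (SD, n = 2).

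In ES, all 8 Hoxb interactions had the same bin at an end, chr11:96250001-96260000, which holds the RNA gene Gm53. Its strongest partner was the neighbouring bin of Gm11539, at 9.69 and 8.64 CPM (9.16 ± 0.742, SD, n = 2). Outside the cluster it was joined to Ttll6, a tubulin-modifying enzyme gene, at chr11:96130001-96140000 (3.61 ± 0.00619 CPM, SD, n = 2). It was also joined to Calcoco2, a gene of an autophagy receptor, 150 kb away (3.51 ± 0.296 CPM, SD, n = 2). No Hox gene body lay in any bin of these 8 interactions.

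At Hoxc, the ES list had the highest levels of all Hox interactions of the MEF and ES H3K27ac lists. The Hoxc13 and Hoxc12 bins (chr15:102920001-102930000 and chr15:102930001-102940000) were joined at 19.3 and 20.4 CPM (19.9 ± 0.846, SD, n = 2). The Hoxc12 bin and the bin of Hotair, an antisense RNA gene between Hoxc12 and Hoxc11, were joined at 16.2 and 17.4 CPM (16.8 ± 0.872, SD, n = 2). The Hoxc12 bin took part in 7 of the 17 ES interactions and in 0 of MEF, and the longest of them reached Atp5g2 260 kb away, at 3.67 ± 0.477 CPM (SD, n = 2).

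The MEF interactions of Hoxc were 6, all of them other pairs than in ES, though 4 Hoxc bins took part in both lists. The strongest was between the bin of Hoxc8 and Hoxc6 (chr15:102990001-103000000) and the next bin of Hoxc6, at 8.59 and 7.68 CPM (8.13 ± 0.645, SD, n = 2). A 170 kb contact joined the Hoxc8 bin to Smug1, a DNA repair gene, at 3.28 ± 0.146 CPM (SD, n = 2). In ES, Smug1's bin had a 150 kb contact with the bin of Hoxc6, Hoxc5 and Hoxc4 at 3.31 ± 0.378 CPM (SD, n = 2). Since no pair was in both lists, no Hox interaction could be tested for a change of strength between MEF and ES with H3K27ac. In the whole table edgeR's quasi-likelihood test called 32.0% of 17901 common interactions at a Benjamini-Hochberg adjusted p under 0.05.

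Counted by gene body, 20 of the 39 Hox genes had an H3K27ac interaction in MEF and 8 in ES. More were listed in MEF for 18 genes and in ES for 6, with 15 equal, all at 0 in both. The 6 were Hoxc4, Hoxc9, Hoxc10, Hoxc11, Hoxc12 and Hoxc13. Long genes such as Hoxb3 cover more bins, and genes that share a bin share its interactions, so these counts are not independent. Genes flanking the clusters went the other way. Of 23, 2 had more in MEF (Skap1, 17 against 4, and Smug1, 3 against 2) and 16 had more in ES, with Calcoco2 at 0 against 13.

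In Hi-C, unlike H3K27ac, many Hox pairs were in both the MEF and the ES list. Of the 196 MEF and 251 ES interactions 113 were in both, 57.7% and 45.0%, near the shares of the whole lists (55.9% and 39.997%). Most left the cluster (148 of 196 and 191 of 251), and 60.7% and 69.7% spanned 50 kb or more against 37.0% and 48.0% of the whole lists. For comparison, 8 of 25 MEF and 11 of 25 ES H3K27ac interactions left the cluster.

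Hoxc contacts in Hi-C ran mostly beyond Hoxc4, towards Smug1. The cluster bin with most interactions was that of Hoxc4 (chr15:103020001-103030000) in MEF, with 15 of 86, and that of Hoxc6, Hoxc5 and Hoxc4 (chr15:103010001-103020000) in ES, with 18 of 130. Outside the cluster, the Smug1 bin chr15:103160001-103170000 and the bin after it had 7 each in MEF. In ES the bin after Smug1 and a bin of D930007P13Rik (chr15:103130001-103140000) had 9 each. Hoxd, with 8 and 10 interactions, reached farthest: the longest spanned 580 kb in MEF and 450 kb in ES. Its most frequent partner in MEF was chr2:75140001-75150000 (2600014E21Rik), with 4, against 2 in the ES list.

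Strength in Hi-C is given as the deposited signal, which is scaled by the authors per chromosome and is no share of a known total. None of the 113 common interactions was called by edgeR's quasi-likelihood test, where 0.0289% of all 124544 were, and DESeq2 called 0 of 113 (0% of all). Without TMM, a scaling that centres the change of most interactions on 0, edgeR called 5, all at Hoxc and lower in ES. At an unadjusted p under 0.05 there were 13 with edgeR (8 higher and 5 lower in ES) and 1 with DESeq2. The share at that level over all interactions was 6.01%.

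The lowest p belonged to a contact of the Hoxc4 bin with chr15:103080001-103090000. Its signal was 16.2 and 19.7 in MEF and 40.5 and 43.3 in ES, so the libraries did not overlap, as was so for 36.1% of all common interactions. The log2 change was 1.12 (SE 0.30, edgeR adjusted p = 0.249). In the same neighbourhood the contact of the Hoxc4 bin with the Smug1 bin had 25.6 and 30.1 in MEF and 17.1 and 19.1 in ES, a log2 change of -0.73 (SE 0.29). The 8 Hoxc contacts under an unadjusted p of 0.05 lay on both sides of 0. The 3 with higher values in ES ended before Smug1, and the 5 with lower values ended in its last bin or the bin after it. These were picked out after their values were seen.

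At Hoxb 30 of 34 common Hi-C interactions had higher values in ES, with a median log2 change of 0.31 against 0.00 over all tested interactions. With offsets by the contact totals of each chromosome only 11 of the 34 lay above the median of all interactions, and their own median was 0.01 against 0.10. The Hoxb direction in Hi-C therefore depended on the scaling. The lowest p was at the bins of Hoxb5 and Hoxb3 (chr11:96300001-96310000 and chr11:96330001-96340000), with 31.0 and 33.0 in MEF and 38.98 and 48.9 in ES (log2 change 0.78, SE 0.26, edgeR adjusted p = 0.491). Hoxa had a median of 0.04 over 16 interactions, Hoxc of -0.03 over 60 and Hoxd of -0.10 over 3. The lowest p at Hoxa was at 2 bins past Hoxa13 that hold no annotated gene, with 52.1 and 57.6 in MEF and 39.6 and 54.1 in ES (log2 change -0.37, edgeR adjusted p = 0.907).

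**Figure D3:**
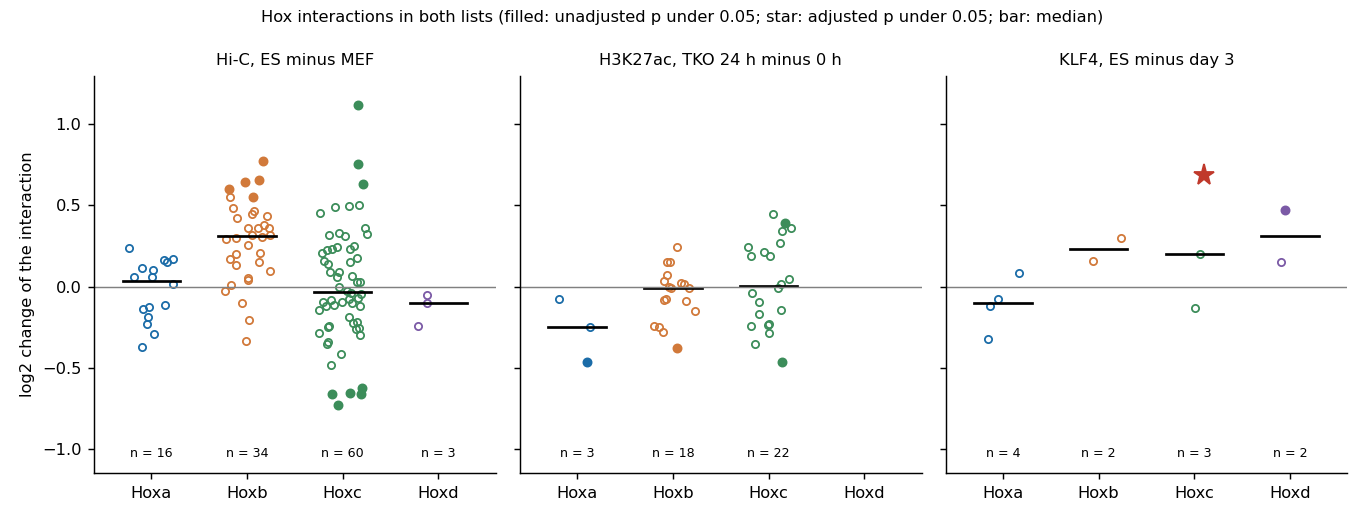
Log2 change of each Hox interaction that was in both lists, by cluster, for Hi-C (ES minus MEF), H3K27ac in TKO cells (24 h minus 0 h) and KLF4 (ES minus day 3). Filled points have an unadjusted p under 0.05, the star an adjusted p under 0.05, and bars are medians. The 1 star is Hoxc12 with Hotair at 0.69.

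The Hoxc12 bin went in opposite directions in Hi-C and H3K27ac, by number of interactions. In Hi-C it had 7 interactions in MEF and 1 in ES, and with H3K27ac 0 in MEF and 7 in ES. The pair of Hoxc12 and Hotair was in the MEF Hi-C list at 55.2 and 57.7 (56.4 ± 1.76, SD, n = 2) and not in the ES Hi-C list. At Hoxa the Hi-C list of MEF alone had 2 bins of Hoxa13 at 51.6 ± 2.93 (SD, n = 2). Of the 131 distinct Hox pairs in any HiChIP list, 79 were also in a Hi-C list. By cluster these were 17 of 20 at Hoxa, 22 of 51 at Hoxb, 39 of 56 at Hoxc and 1 of 4 at Hoxd. Within cell types, 14 of 25 MEF H3K27ac interactions were in MEF Hi-C (56%, whole list 47.1%) and 10 of 25 in ES (40%, whole list 51.2%). As shares of the Hi-C interactions these were 7.14% in MEF (whole list 12.6%) and 3.98% in ES (whole list 12.1%).

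A TAD boundary ran through each cluster at the same place in both cell types. It fell across Hoxa10 (end of the domain at 52240000 on chromosome 6), across Hoxb8 (96280000 on chromosome 11), between Hoxc11 and Hoxc10 (102960000 on chromosome 15) and across Hoxd11 (74680000 on chromosome 2). The domain ending inside Hoxc was the last listed on its chromosome. Within 1 Mb of the clusters 9 of 11 boundaries of each cell type were at the same position in both. Over all boundaries that share was 51.2% in MEF and 48.2% in ES. With a tolerance of 40 kb it was again 9 of 11 near the clusters, against 63.8% of all MEF and 60.1% of all ES boundaries. The deposited domains give 1 set per cell type in steps of 40 kb, without replicates.

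The domains at these boundaries differed in length at 3 clusters, of which Hoxc had no domain listed past its boundary. At Hoxa both cell types had 360 kb on the Hoxa9 side and 1520 kb on the Hoxa13 side. At Hoxb the lengths were 2400 and 2400 kb in MEF and 1720 and 920 kb in ES. At Hoxc the domain on the Hoxc13 side was 280 kb in MEF and 880 kb in ES. At Hoxd the domains were 760 and 920 kb in MEF and 1120 and 480 kb in ES, so the domain on the Hoxd1 side was the shorter in ES.

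No listed MEF or ES H3K27ac interaction crossed the boundary at Hoxb, and some in MEF did at Hoxa. At Hoxb, 0 of 11 MEF and 0 of 8 ES interactions crossed, with all 11 on the Hoxb7 side and all 8 on the Hoxb9 side. Of these, 5 in MEF and 3 in ES were pairs up to 40 kb within the cluster. Among all possible Hoxb pairs of that kind 14.3% span the boundary. Counts this small cannot show whether contacts avoided it. In Hi-C 0 of 60 MEF and 0 of 64 ES interactions of Hoxb crossed, of which 9 and 11 were such pairs. The domains come from the same Hi-C, so these counts are no separate test of the boundary. With H3K27ac in TKO cells 0 of 29 at 0 h and 0 of 22 at 24 h crossed. With KLF4 it was 0 of 3 at day 3 and 0 of 12 in ES. At Hoxa, 4 of 8 MEF interactions crossed the boundary in Hoxa10. They joined the Hoxa9 bin and the Mir196b bin to the bins of Hoxa11 and Hoxa13, 10 to 30 kb apart. Domains were given in steps of 40 kb, so whether pairs this short cross a boundary cannot be resolved. The same limit holds for the pairs up to 40 kb counted above and below. At Hoxc, 1 of 17 ES interactions crossed, between Hoxc12 and Hoxc10. Over all clusters 4 of 25 MEF H3K27ac interactions (16%) and 6 of 26 at day 3 (23.1%) crossed any boundary, against 1.46% and 1.66% of the whole lists. No domains were given for day 3, so the MEF boundaries were used there. Each cluster holds a boundary, so the pairs possible within it give a nearer scale. Among all possible pairs up to 40 kb within the clusters 18.8% span the boundary; in MEF H3K27ac 4 of 17 such pairs did (23.5%), at day 3 5 of 19 (26.3%), in MEF Hi-C 2 of 43 (4.65%) and in ES Hi-C 6 of 45 (13.3%).

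**Figure D4:**
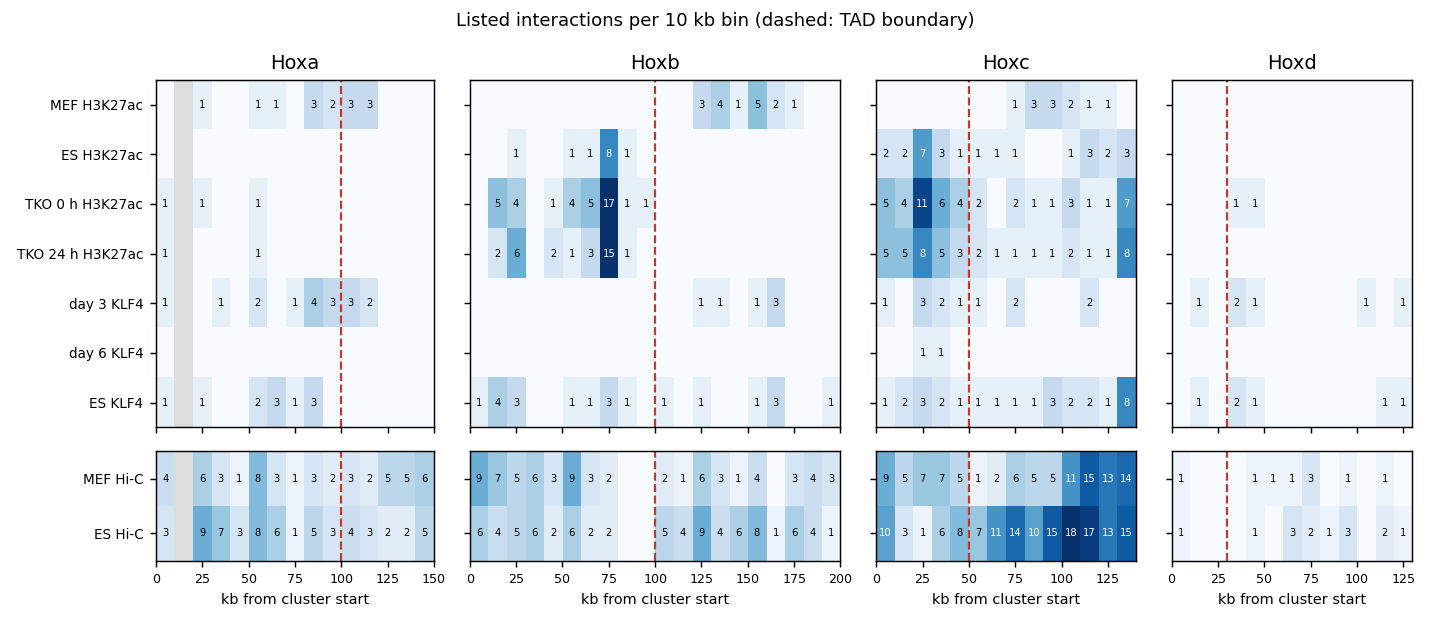
Number of listed interactions at each 10 kb bin of the clusters, by list; x is the distance in kb from the cluster's start, darker blue means more, with HiChIP lists above and Hi-C lists below on its own colour scale; 1 column of Hoxa is grey and not shown. The dashed line is the TAD boundary. The Gm53 bin of Hoxb has 8 in ES and 17 in TKO 0 h, and the Hoxc12 bin has 7 and 11.

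KLF4 contacts at the Hox clusters were listed at day 3 and in ES, with 1 at day 6. At day 3, 12 of 26 interactions were at Hoxa, and the bins of Hoxa9 to Hoxa13 that had H3K27ac contacts in MEF were among them. In ES, 22 of 46 were at Hoxc and 12 at Hoxb, with 0 at Hoxa10, Hoxa11 or Hoxa13. Day 3 and ES shared 11 interactions (42.3% of 26 and 23.9% of 46, whole lists 31.1% and 30.0%). These KLF4 comparisons share their samples with each other.

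At day 3 the strongest Hoxa interaction was that of the Hoxa10 and Hoxa11 bin with the Hoxa13 bin, at 7.92, 9.03 and 5.93 CPM (7.62 ± 1.57, SD, n = 3). It was not listed in ES. The Hoxa9 bin with the Hoxa10 and Hoxa11 bin had 6.09, 6.10 and 6.11 CPM. The pair is the same as in the MEF H3K27ac list, and in all 6 of 25 MEF H3K27ac interactions (24.0%, whole list 17.9%) were in the day 3 KLF4 list. They were 23.1% of the 26 day 3 interactions, below the 46.0% of the whole day 3 list. The longest Hox contact of any list ran 1050 kb from the Hoxa9 bin to chr6:51170001-51180000, at 3.96, 5.001 and 3.74 CPM (4.23 ± 0.674, SD, n = 3), and it was in the day 3 list alone. In the authors' deposited table its FDR was 0.000596, and it was the only day 3 Hox interaction under 0.1 (whole list 0.535%). Under the same FDR were 0 of 25 Hox interactions in MEF H3K27ac (whole list 1.84%) and 1 of 25 in ES H3K27ac (5.90%). In TKO cells they were 5 of 67 at 0 h (7.74%) and 3 of 54 at 24 h (5.83%). For KLF4 there were 0 at day 6 (0.173%) and 0 of 46 in ES (0.199%). In Hi-C there were 56 of 196 in MEF (12.6%) and 47 of 251 in ES (8.80%).

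In ES the strongest KLF4 interactions were those also strongest with H3K27ac. Hoxc13 with Hoxc12 had 16.9, 12.1, 13.3 and 12.5 CPM, and over the 2 sets of libraries left after joining those that agreed within sampling noise it averaged 13.7 ± 1.10 (SD, n = 2). It was not listed at day 3. The bin of Gm30528 past Hoxc4 (chr15:103040001-103050000) took part in 8 of the 22 Hoxc interactions, the strongest of them with the next bin at 10.2 ± 1.17 CPM (SD, n = 2). The bin after Smug1 (chr15:103170001-103180000) had 7. Of the 25 ES H3K27ac interactions 12 were in the ES KLF4 list (48%, whole list 24.1%). These were 26.1% of the 46 KLF4 interactions, below the 74.0% of the whole KLF4 list that was in ES H3K27ac.

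The pair of Hoxc12 and Hotair was in 6 of the 7 HiChIP lists, more than any other Hox pair, and is the only Hox interaction that was called in any comparison. With KLF4 its day 3 levels were 8.44, 8.22 and 7.37 CPM (8.01 ± 0.566, SD, n = 3). Its ES levels were 11.1, 13.1, 13.01 and 14.7 CPM (12.9 ± 1.26, SD, n = 2). All ES libraries lay above all day 3 libraries, as was so in either direction for 14.1% of all interactions tested. The log2 change was 0.69 (SE 0.20, edgeR quasi-likelihood adjusted p = 0.0195), 1 call among 11 tested, where 7.20% of all were called (3.02% of all as higher in ES). DESeq2 gave it an adjusted p of 0.260 and called 0, against 2.44% of all. The edgeR call was lost without day 3 replicate 1 (adjusted p = 0.0697), without replicate 2 (0.138) or 3 (0.140), and without ES replicate 4 (0.0961). It was also lost with the replicate block (0.112) and with the totals of each chromosome (0.0521).

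The same pair was the only Hox interaction listed at day 6, at 6.05, 5.68, 6.90 and 5.31 CPM (5.98 ± 0.679, SD, n = 4). From day 6 to ES the log2 change was 0.56 (SE 0.20, edgeR adjusted p = 0.0965), where 3.37% of all 2076 interactions were called. It was called in this comparison without TMM, with the totals of each chromosome and with a replicate block. From day 3 to day 6 it was 0.16 (SE 0.19, edgeR adjusted p = 0.755), where 5.33% of all were called. That sign depended on scaling, since mean CPM was lower at day 6 and without TMM the log2 change was -0.44. The day 6 list is short as a whole, with 4047 interactions.

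Hoxd had 3 KLF4 interactions at day 3 and 3 in ES, and none with H3K27ac in MEF or ES. The bin chr2:74690001-74700000 holds the Hoxd10 window printed above. The bins of Hoxd11 and Hoxd9 (chr2:74680001-74690000 and chr2:74690001-74700000) had 6.52, 6.26 and 3.71 CPM at day 3 (5.495 ± 1.55, SD, n = 3). In ES they had 6.80, 8.09, 6.99 and 8.3999 CPM (7.57 ± 0.177, SD, n = 2). The libraries did not overlap, as was so for 14.1% of all interactions tested and for 2 of the 11 at Hox clusters. The log2 change of 0.47 (SE 0.20, edgeR adjusted p = 0.151) was not past the threshold. The lowest p at Hoxb was at 2 bins of Hoxb3 (log2 change 0.30, SE 0.21, edgeR adjusted p = 0.447).

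**Figure D5:**
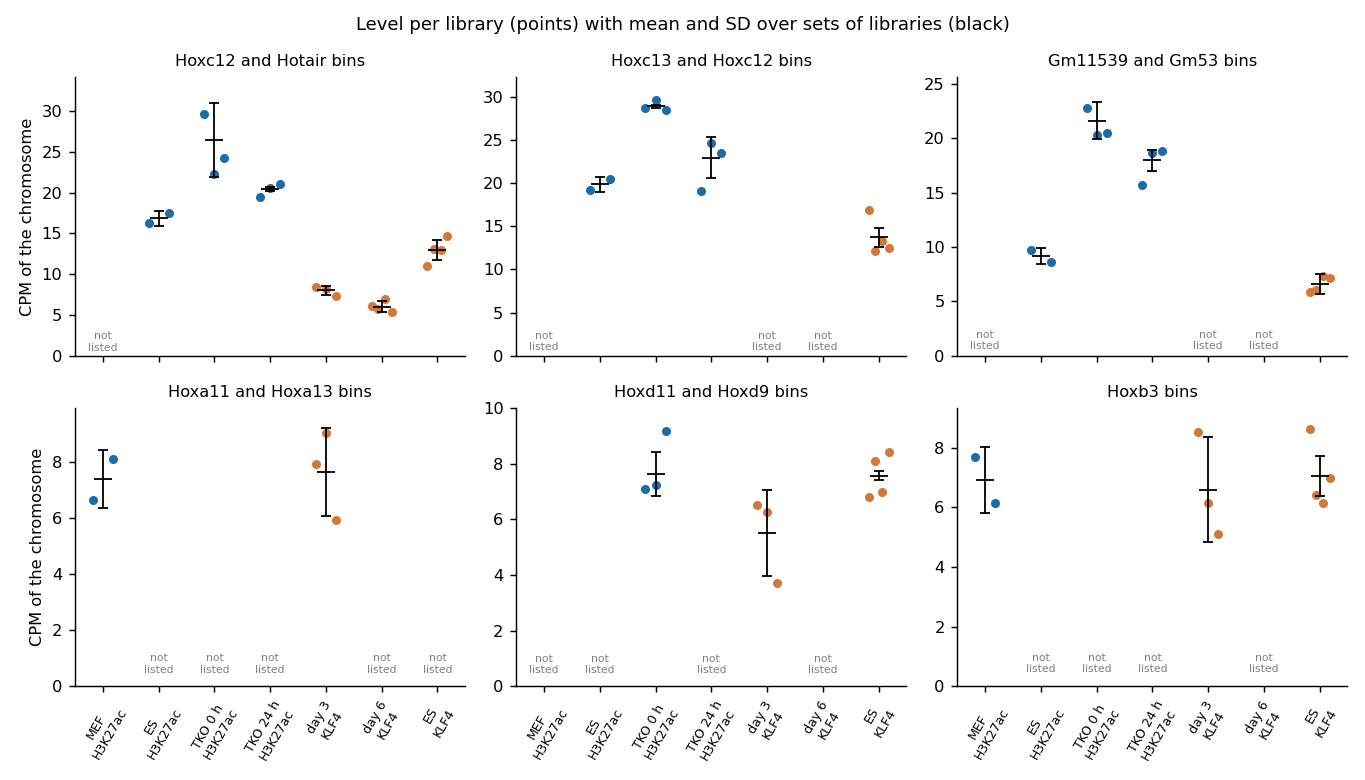
Level in CPM of the chromosome of 6 recurrent Hox interactions in each HiChIP library (points; blue H3K27ac, orange KLF4), with mean and SD over sets of libraries in black; grey text marks lists that lack the pair. For KLF4, Hoxc12 with Hotair lies at 7.37 to 8.44 at day 3 and 11.1 to 14.7 in ES.

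In TKO cells the same hubs as in ES carried the H3K27ac contacts, and more were listed. Of the 25 ES interactions 20 were in the TKO 0 h list (80%, whole list 77.6%), which is 29.9% of the 67 (whole list 62.8%). The Gm53 bin took part in 17 of 29 Hoxb interactions at 0 h and in 15 of 22 at 24 h. At neither time did a Hoxb interaction lie on the Hoxb7 to Hoxb1 side of the boundary. The longest reached Igf2bp1, an RNA-binding protein gene, 290 kb away at 0 h (3.73 ± 0.0507 CPM, SD, n = 2). Hoxa contacts, absent from the ES H3K27ac list, were 5 at 0 h and 3 at 24 h.

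By CPM of the chromosome the highest levels were again at Hoxc. That rank depends on the scale, since chromosome 15 had fewer contacts than chromosome 11. In raw counts at 24 h, Hoxc13 with Hoxc12 had 54, 104 and 79, and Gm11539 with Gm53 at Hoxb had 63, 112 and 90. Hoxc13 with Hoxc12 had 28.7, 29.6 and 28.5 CPM at 0 h (28.9 ± 0.204, SD, n = 2) and 19.1, 24.6 and 23.4 CPM at 24 h (22.9 ± 2.39, SD, n = 2). Hoxc12 with Hotair had 29.6, 22.3 and 24.3 CPM at 0 h and 19.4, 20.6 and 21.1 CPM at 24 h. For both pairs the libraries did not overlap, yet the fitted log2 changes of -0.24 (SE 0.13, edgeR adjusted p = 0.435) and -0.23 (SE 0.14, adjusted p = 0.481) were not past the threshold. Libraries did not overlap for 21.1% of all interactions tested and for 12 of the 43 at Hox clusters. At Hoxb, Gm11539 with Gm53 had 22.8, 20.3 and 20.5 CPM at 0 h and 15.7, 18.7 and 18.8 CPM at 24 h (log2 change -0.15, SE 0.13, edgeR adjusted p = 0.678).

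Between 0 h and 24 h of doxycycline, 43 Hox interactions were in both lists (64.2% of 67 and 79.6% of 54, whole lists 72.6% and 80.4%). None was called by edgeR, where 2.62% of all 67728 were. At an unadjusted p under 0.05 there were 4 (1 higher and 3 lower at 24 h, against 13.6% of all). DESeq2 called 0 of the 4 to which it gave an adjusted p, against 3.57% of all. The median log2 change of the 43 was -0.01, and that of all interactions was 0.01. The lowest p was at the Gm30528 bin past Hoxc4 and the bin after it, with 15.1, 15.8 and 14.7 CPM at 0 h and 14.1, 20.4 and 19.9 at 24 h (log2 change 0.39, SE 0.16, edgeR adjusted p = 0.182). The lowest at Hoxb was Calcoco2 with the Gm53 bin (chr11:96110001-96120000 and chr11:96250001-96260000), at 9.28 ± 0.715 CPM at 0 h and 6.97 ± 1.93 at 24 h (SD, n = 2, log2 change -0.38, edgeR adjusted p = 0.336).

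The TKO lists also carry the authors' H3K27ac peaks per bin. Every listed Hox interaction had a peak at 1 anchor or both, as all interactions of these lists did. Peaks at both anchors were found for 21 of 67 at 0 h (31.3%, whole list 54.0%) and 19 of 54 at 24 h (35.2%, whole list 51.6%). The lists annotate a bin only where it takes part in an interaction, here 8 of the 20 Hoxb bins and all 14 Hoxc bins, and peaks elsewhere are unknown. Among the annotated bins those with a peak were 3 bins at Hoxb (those of Gm11538, Gm11539 and Gm53) and 5 at Hoxc (the bins from before Hoxc13 to Hotair, and the Gm30528 bin). At Hoxd the bin of Hoxd10 and Hoxd9 had a peak at 0 h and not at 24 h. The Hoxd11 with Hoxd9 interaction was listed at 0 h alone, at 7.07, 7.21 and 9.17 CPM (7.63 ± 0.791, SD, n = 2). Its other bin had no peak at either time. As every listed interaction had a peak, the absence of this pair at 24 h tells nothing about its level.

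Genes known to act with or upon the Hox genes were counted by the same gene-body bins. Of 20 genes of Polycomb subunits 13 had more H3K27ac interactions in ES and 2 in MEF (Ezh1, 2 against 0, and Phc2, 5 against 0). Examples are Cbx7, 9 in MEF and 72 in ES, and Jarid2, 2 and 58. Of 10 upstream regulators 6 had more in ES and 2 in MEF. Rarb, a retinoic acid receptor, had 11 in MEF and 0 in ES. Of 9 cofactors of HOX proteins 3 had more in either cell type, with Meis1 at 4 in MEF and 0 in ES and Pknox1 at 9 and 29. The ES list is longer (75466 against 60870), and no test was made of these counts.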

How the data were processed

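HiChIP and Hi-C contacts were measured in 25 libraries of 9 groups. Per the submitters' processing notes, Bowtie2 2.2.3 and build mm10 were used; the contact caller is not given in the sources used here. Per the file headers, each deposited list holds, for every interaction, raw counts and CPM per replicate and a p-value and an FDR. The authors' CPM in HiChIP is relative to the contacts of the same chromosome, since dividing count by CPM gives 1 whole number per chromosome; in Hi-C the deposited value is a score scaled by unstated constants. The deposited lists are filtered: p-values under 0.1 in HiChIP and 0.01 in Hi-C, CPM above 3 in all H3K27ac libraries and in replicates 1 and 2 of KLF4, and Hi-C scores of 15 or more. A fixed CPM needs more counts on a large chromosome: in ES H3K27ac replicate 1 the lowest listed count was 38 on chromosome 2 and 21 on chromosome 15, so in HiChIP the Hoxd filter was the strictest in counts.

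Bins were matched to RefSeq gene bodies (GRCm38.p6) in all lists, because the authors' gene names per bin exist in the TKO lists alone. Counts of pairs in both lists were tested over the whole table by the quasi-likelihood test of edgeR (version 4.0.16 in R 4.3.3, with filterByExpr, TMM on contact totals, or on count sums in Hi-C, Benjamini-Hochberg), with calls at an adjusted p under 0.05. Libraries that agreed within sampling noise by a chi-square test, in a group where others differed, were summed and counted as 1. This left sets of ES KLF4 replicates 1 and 2, and 3 and 4; of TKO 0 h replicate 1, and 2 and 3; and of TKO 24 h replicates 1 and 3, and 2. At day 6 no pair of libraries differed, so its SD is counting noise. Replicate numbers did not pair the samples. Alternatives were DESeq2 1.42.0, other scalings, a replicate block, each library left out, and other filters on the lists. The script was tested on simulated data. Intervals and the limit of a count of 0 (3 counts of the total) cover counting error only. Tables used Python 3.11.15.

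The clusters, gene lists and tests were chosen with earlier results of these data known. Named were, per cluster and list, the strongest and the longest interaction and the bins with most interactions, and, per comparison, all calls, the lowest p-value of each cluster and the strongest pair listed in 1 group alone. One Hoxa bin and its gene are not reported or drawn here, although its contacts remain in the totals.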

Additional observations from a re-analysis of the deposited data

Results flagged for a closer look

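For ES KLF4, the only group of 4 libraries with several Hox interactions, and for day 6, the interactions and their sums were checked for a library far from the others, 48 values in all, of which 1 stood out. Chance flags about 1 in 20. The contact of the Gm30528 bin past Hoxc4 with chr15:103080001-103090000 was at 2.86 CPM in replicate 3 and at 4.02 to 4.197 CPM in the others.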

How the results depend on the processing

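In 59 of 72 recalculations the number of called Hox interactions was the same as reported, and 115 of 130 log2 changes of named interactions kept their direction and side of the threshold. The 72 include those for H3K27ac in ES against MEF, where 0 Hox interactions were tested and the number could only be 0. In each of the comparisons with day 6 only 1 was tested. In Hi-C, 5 interactions were called without TMM, all at Hoxc and lower in ES, a scaling that moves the median log2 change of all interactions to -0.33; leaving out 1 replicate gave 0 to 1. For KLF4 in ES against day 3, 0 were called with DESeq2, with the replicate block or with the totals of each chromosome, and leaving out 1 replicate gave 0 to 1. In ES against day 6, 1 was called without TMM, 1 with the replicate block, 1 with the totals of each chromosome, and 0 to 1 with a replicate left out. The block moved no other count of calls; replicate numbers showed no pairing, with correlations of deviations between -0.05 and 0.04.

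Listed numbers fell under stricter rules. With both bins in a cluster they were 14 in ES H3K27ac, 29 in TKO 0 h, 25 in TKO 24 h, 25 in ES KLF4, 48 in MEF Hi-C and 60 in ES Hi-C. With a mean CPM of at least 2 times the lowest of the list they were 8 in MEF H3K27ac, 10 in ES H3K27ac, 25 in TKO 0 h, 18 in TKO 24 h, 14 at day 3, 30 in ES KLF4, 66 in MEF Hi-C and 82 in ES Hi-C. With the count needed on chromosome 2 asked everywhere, a rule chosen after seeing the data, they were 12 in MEF H3K27ac, 11 in ES H3K27ac, 36 in TKO 0 h, 31 in TKO 24 h, 17 at day 3 and 23 in ES KLF4. With anchors free to move by 1 bin, the shares in both lists were 84.7% in Hi-C, 94.4% in TKO and 73.1% for KLF4 in ES and day 3.

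Directions reversed for 3 log2 changes. The Hoxd contact chr2:74710001-74720000 with chr2:75140001-75150000 in Hi-C ranged from -0.46 to 0.011 with a replicate left out, the last without MEF replicate 1. Hoxc12 with Hotair from day 3 to day 6 was -0.44 without TMM and -0.42 with the totals of each chromosome, also chosen after seeing the data; the cause was not tested. In HiChIP, depth limits single pairs most at Hoxd, where the filter needs most counts; in ES Hi-C the filter needed most at Hoxb.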
